A study of Mus musculus with 6 samples.

Results

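The 9 mRNAs described here encode the α-tubulins Tuba1a, Tuba1b and Tuba1c and the β-tubulins Tubb5, Tubb2a, Tubb2b, Tubb3, Tubb4b and Tubb6. They were chosen by gene name, and they are 9 of the 55291 genes listed. RNA-seq was performed on WT mouse embryonic fibroblasts (MEFs) given vehicle, 1 μM MASM7 for 6 h, a mitofusin activator, or 20 μM MFI8 for 6 h, a mitofusin inhibitor. Each of the 3 groups had 2 libraries of polyA RNA, from 2 independent biological replicates per the series' design text. How the MEFs were immortalized, if they were, and how long the vehicle was given are not stated in the labels. Mitofusins are GTPases of the outer mitochondrial membrane that drive fusion and also link mitochondria to motor adaptors on microtubules.

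α- and β-tubulin form the heterodimer that polymerizes into microtubules, the tracks along which kinesins and dynein move mitochondria. Cells adjust tubulin synthesis by autoregulation. When microtubules disassemble and free dimers accumulate, TTC5 binds the first residues of tubulin as they leave the ribosome, SCAPER is recruited, and the CCR4-NOT deadenylase complex degrades the mRNA. When free dimers are scarce the same mRNAs last longer. The readout of autoregulation is therefore a shift of α- and β-tubulin mRNAs together. The comparisons below ask whether such a shift was measured when mitochondrial fusion was promoted or inhibited.

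The signal that autoregulation reads lies in the first codons. These are shown because they are what the members have in common beyond their names. The sequences are from GENCODE vM21 transcripts on GRCm38, in the coding direction, 5′ to 3′, and capitals mark the first 4 codons.
Tuba1a (chromosome 15, minus strand): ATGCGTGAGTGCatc
Tuba1b (chromosome 15, minus strand): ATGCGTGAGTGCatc
Tuba1c (chromosome 15, plus strand): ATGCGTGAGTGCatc
Tubb5 (chromosome 17, minus strand): ATGAGGGAAATCgtg
Tubb2a (chromosome 13, minus strand): ATGCGCGAGATCgtg
Tubb2b (chromosome 13, minus strand): ATGCGAGAGATCgtg
Tubb3 (chromosome 8, plus strand): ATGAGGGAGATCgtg
Tubb4b (chromosome 2, minus strand): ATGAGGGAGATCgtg

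The α members shared the same 15 bases, which encode Met-Arg-Glu-Cys and then Ile. The β members differed among themselves at the Arg and Glu codons and all encoded Met-Arg-Glu-Ile. Tubb6 had the β-type start too, and its bases are not printed. Of 21613 coding genes in the annotation, 9 (0.0416%) had a transcript that began with Met-Arg-Glu-Ile and 9 (0.0416%) one that began with Met-Arg-Glu-Cys. In each class 8 of the 9 were tubulin genes. The exceptions were Ing1, which encodes a chromatin-associated growth inhibitor, and Gm49450, an annotated gene that overlaps Tuba1a and Tuba1b on their own strand. The start is a property of the sequence, and its use was not measured in these libraries.

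The genes lie at chr15:98949837-98953703 for Tuba1a, chr15:98931425-98934565 for Tuba1b and chr15:99029891-99038110 for Tuba1c. Tubb2a (chr13:34074274-34078007) and Tubb2b (chr13:34126748-34130466) also neighbour each other. Tubb5 lies at chr17:35833921-35838306, Tubb3 at chr8:123411424-123422015 and Tubb4b at chr2:25222160-25224702. Tubb6 is on chromosome 18. The longest coding transcript of every member had 4 exons.

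Likeness within the family limits how well the members can be told apart. The coding sequences of the α members were 97.6% to 98.4% identical, and those of Tubb2a and Tubb2b were 96.5% identical. The other pairs of β members ranged from 80.8% to 86.4%. Of the 50-base windows of the transcript used, 83.1% in Tuba1b, 75.5% in Tuba1a and 61% in Tuba1c also occurred in another annotated gene, most often another α member. The share was 55.5% in Tubb4b, mainly through the pseudogene Tubb4b-ps1, 49.6% in Tubb2a and 39.3% in Tubb2b. In Tubb5 it was 0.115%, and in Tubb3 and Tubb6 it was 0%. At 100 bases the shares were lower, from 27.7% in Tubb2b to 73% in Tuba1b among the 6 members with shared windows of that length. Reads from such windows cannot be given to a gene without ambiguity, and the treatment of reads that match several places is not given in the sources used here. Tuba1a, Tuba1b, Tuba1c, Tubb2a, Tubb2b and Tubb4b are therefore uncertain as single genes, while Tubb3, Tubb6 and Tubb5 are not limited in this way.

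**Figure D1:**
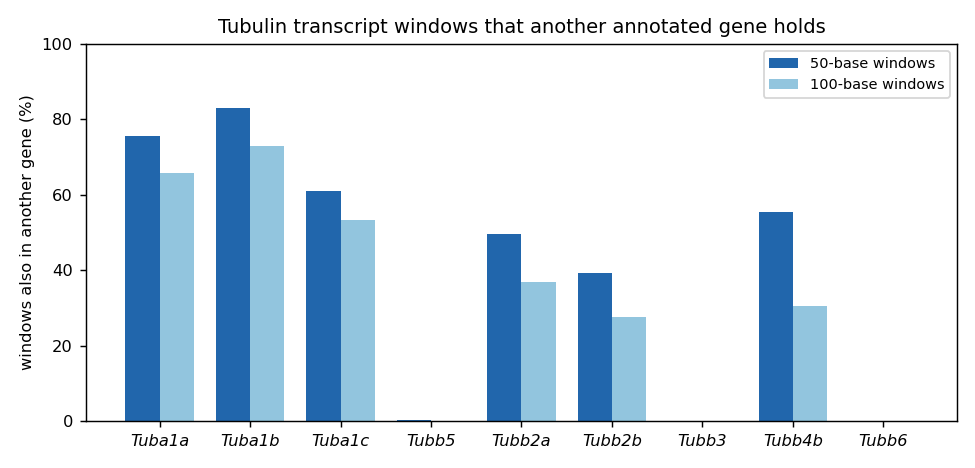
Share of 50-base (dark) and 100-base (light) windows of each member's transcript that also occur in a transcript of another annotated gene (y axis, %). The bars of the α members reach 61% to 83.1% at 50 bases, while Tubb3 and Tubb6 have none.

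Some members also overlap other genes in the genome. Gm49450 covered 26.2% of the exonic bases of Tuba1a and, together with the antisense gene Gm41396, 27.4% of those of Tuba1b, and it had 0 to 2 counts in any library. Gm41396 had 10 to 32 counts. Fam166a, on the opposite strand, covered 5.8% of the exonic bases of Tubb4b and had 0 to 3 counts. The strand setting of the counting, and what it did with reads in such overlaps, are not given in the sources used here.

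The libraries held 22791792 to 30677751 counts, and TMM factors, which correct for composition, were 0.9906 to 1.008. The members together took 0.3277% to 0.3565% of the counts of a library. Markers of fibroblasts were present, with 9 of 10 at a TPM (a level that corrects for transcript length and library size) of at least 1 in all 6 libraries and a summed level of 5603 to 7138 TPM. The fibroblast list was not level between groups. With MFI8, 8 of 10 of its genes were lower and 4 were called lower with the block, against 2.25% of all genes. These 4 were Col3a1 (log2 fold change -0.53, edgeR adjusted p = 1.13e-05 with the block), Pdgfra (-0.38, 0.00211), Pdgfrb (-0.34, 0.0191) and S100a4 (-0.16, 0.0365), and 0 of the list were called without the block. With MASM7, 6 of 10 were higher and Fbln2 was called higher with the block (0.23, edgeR adjusted p = 0.00793). Of 10 neuronal markers, 3 had no count in any library, and the list summed to 4.49 to 6.31 TPM, most of it Map2. Endothelial markers summed to 0.251 to 0.455 TPM, epithelial markers to 1.02 to 1.69 TPM, macrophage markers to 13.5 to 16.9 TPM and muscle markers to at most 2.22 TPM. The epithelial sums were at most 1.16 TPM with vehicle and at least 1.29 TPM with MASM7 and 1.25 TPM with MFI8. The macrophage sums were at least 15.2 TPM with vehicle and at most 14.0 TPM with MFI8, and 0 genes of either list were called with or without the block. The muscle list, of which 4 of 6 had no count, summed to 1.36 and 1.44 TPM at its lowest and highest with vehicle and to 1.99 and 2.22 TPM with MASM7. Its tested gene Tnnt2 was called higher with MASM7 under the block (log2 fold change 0.70, edgeR adjusted p = 0.0401, or 0.473 without it). The part of these markers in the values below was not tested. In bulk RNA, fewer cells of a type and less RNA per cell cannot be told apart.

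Tubb5, the main β-tubulin of dividing and non-neuronal cells, was the most abundant member. Its mean over the 6 libraries was 1655 ± 36.1 TPM (SD, n = 6), with a range of 1610 to 1704 TPM. It ranked 44 among all genes by mean TPM. Tubb6, the class V β isotype, followed at 840.8 ± 54.8 TPM, and Tubb4b, a widely expressed β isotype, at 583 ± 9.90 TPM. Neither of these overlapped its neighbours in the order.

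The 3 α members came next and close together. Tuba1b had 517 ± 23.2 TPM, Tuba1c 473.6 ± 21.6 TPM and Tuba1a 420.4 ± 27.3 TPM (SD, n = 6). Over all libraries the ranges of Tuba1b and Tuba1c overlapped, as did those of Tuba1c and Tuba1a, while Tuba1b and Tuba1a did not overlap. Within each library the order by TPM was the same, with Tuba1b above Tuba1c and Tuba1c above Tuba1a in 6 of 6. TPM divides by length, and Tuba1c had more counts than Tuba1b in each library. Length and shared windows (83.1% in Tuba1b and 61% in Tuba1c at 50 bases) are the same in every library. Agreement between libraries therefore cannot separate their part from the level of the mRNA. Tubb2a stood apart at 116.4 ± 5.37 TPM. The lowest members were Tubb3, at 58.59 ± 8.35 TPM, and Tubb2b, at 45.2 ± 5.42 TPM. Their ranges over all libraries overlapped, and by TPM Tubb3 was above Tubb2b in 6 of 6 libraries. By counts, Tubb2b was above Tubb3 in Vehicle replicate 2 (721 against 655) and MFI8 replicate 2 (1024 against 986). Tubb3 is best known as the β-tubulin of neurons, and it was read here where 9 of the 10 neuronal markers were at most 0.443 TPM and the microtubule-binding Map2 had 4.18 to 5.83 TPM.

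**Figure D2:**
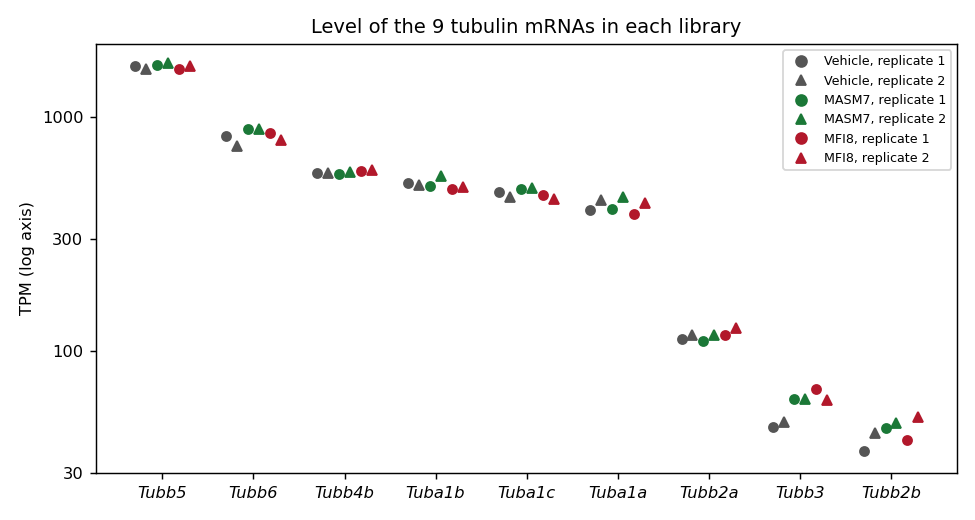
TPM (y axis, log scale) of each member in each of the 6 libraries, with grey for vehicle, green for MASM7 and red for MFI8, and circles for replicate 1 and triangles for replicate 2. The members span 37.2 TPM, the lowest value of Tubb2b, to 1704 TPM, the highest value of Tubb5.

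The other 11 tubulin genes added little. Tubg1, the γ-tubulin that nucleates microtubules at the centrosome, had 138 to 162 TPM, and Tuba4a, an α-tubulin encoded without its C-terminal tyrosine, 28.7 to 34.2 TPM. Tubd1 and Tube1, the δ- and ε-tubulins of centrioles, had 10.7 to 12.4 TPM and 5.92 to 8.28 TPM. Tuba3a and Tubb1 had 0 counts in every library, where a count of 0 is a limit of depth and not a proof of absence. The other 5, which are Tuba3b, Tuba8, Tubal3, Tubb4a and Tubg2, reached at most 0.262 TPM.

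Summed over isotypes, the α members lay below vehicle with MFI8 and the β members above it with MASM7, on either scale. The CPM (counts scaled to a common library size, with TMM factors) of the α members summed to 797 and 789 in the vehicle libraries, 804 and 866 in those of MASM7, and 746 and 760.1 in those of MFI8. For the β members the CPM sums were 2605 and 2476 in the vehicle libraries, 2663 and 2721 in those of MASM7, and 2527 and 2546 in those of MFI8, which overlap with vehicle. Relative to the vehicle mean, the α sum was 0.95-fold with MFI8 and 1.05-fold with MASM7, and the β sum was 0.998-fold with MFI8 and 1.06-fold with MASM7. By TPM the same ratios were 0.967 and 1.04 for α and 1.02 and 1.05 for β, so the direction of the β sum with MFI8 depends on the scale. Over all genes the median log2 difference with MFI8 was 0.0253 by limma on TPM and 0.0027 by edgeR on counts. The sums are given without a test, and an exact permutation test of 2 libraries against 2 has 0.333 as its smallest two-sided p.

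Within the β pool, Tubb5 made up 50.9% and 51.1% of the TPM in the vehicle libraries, 49.8% and 49.99% in those of MASM7, and 48.99% and 50.4% in those of MFI8. Both MASM7 and both MFI8 libraries were below the same 2 vehicle libraries. A share also depends on the other members. Tubb5 itself had 1669 and 1704 TPM with MASM7, above 1668 and 1614 TPM with vehicle, and overlapped with vehicle under MFI8. Tubb6 made up 25.4% and 24.0% with vehicle, was higher in both MASM7 libraries at 26.7% and 26.3%, and overlapped with vehicle under MFI8. Tubb4b made up 17.7% and 18.3% with vehicle, was lower in both MASM7 libraries at 16.98% and 17.04%, and overlapped with vehicle under MFI8. The share of Tubb3 was 1.44% and 1.57% in the vehicle libraries, 1.86% and 1.83% in those of MASM7, and 2.08% and 1.87% in those of MFI8. Here all 4 treated libraries were above the same 2 vehicle libraries. Within the α pool, Tuba1b made up 36.2% to 37.4% and the libraries of the 3 groups overlapped for each α member.

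The counts of all 6 libraries entered the quasi-likelihood test of edgeR. Its p-values were adjusted by Benjamini-Hochberg over the 14290 genes read deeply enough to be tested, at 0.05. All 9 members were among them. Both comparisons use the same 2 vehicle libraries, so their values are given side by side and no likeness between them is counted as a result. The doses differed, and the compounds were not compared with each other. Levels per library are in CPM, which are comparable between libraries for the same gene and not between genes. Where the call changes once the replicate numbers are modelled as a block, the blocked value follows.

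For MFI8, no common shift of the tubulin mRNAs was measured. The 3 α members were below vehicle on average and 5 of the 6 β members above it, and the median log2 fold change of the 9 was 0.0095, against 0.0027 over all genes tested. With offsets, a per-library correction for the GC content and length of transcripts, 3 of the 9 were above vehicle and the median turned to -0.0225. By adjusted p, 0 of the 9 were called, as were 0% of all genes tested. At an unadjusted p under 0.05 the test passed 1 of 9 members and 9.86% of all genes. With the replicate block 1 of 9 was called, against 5.04% of all genes, of which 2.79% were higher and 2.25% lower. Of the 11 other tubulin genes 4 were tested, and these 4 were higher with MFI8, with 0 called with or without the block. In 3 of them the libraries did not overlap with vehicle, as for 20.9% of all genes. Tuba4a, an α-tubulin with the α-type start, was 1 of the 4 (log2 fold change 0.13, edgeR adjusted p = 0.621).

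The member called with the block was Tubb3. Its CPM was 25.0 and 26.0 with vehicle and 35.5 and 32.0 with MFI8. Both MFI8 libraries stood above both vehicle libraries, as they did for 20.9% of all genes. The log2 fold change was 0.40 (SE 0.080, 95% interval 0.22 to 0.58), a 1.32-fold higher level. Its adjusted p by edgeR was 0.211 without the block and 0.00108 with it. The difference between libraries of the same number was 0.50 for replicate 1 and 0.29 for replicate 2 on the log2 scale. Without MFI8 replicate 1 the call with the block was lost (edgeR adjusted p = 0.0688, log2 fold change 0.31).

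Tuba1b, the α-tubulin of most cell types, was the one member whose MFI8 libraries both lay below vehicle, as they did for 19.3% of all genes. Its CPM was 280 and 271 with vehicle and 256 and 261 with MFI8. The log2 fold change was -0.09 (SE 0.058, 95% interval -0.22 to 0.04) and did not pass (edgeR adjusted p = 0.624, or 0.294 with the block). Tuba1a, best known from the developing brain, had 205 and 225 CPM with vehicle and 194 and 215 CPM with MFI8, which overlap. Tuba1c had 312 and 293 CPM with vehicle and 296 and 284 CPM with MFI8, which overlap as well. Between libraries of the same number, the differences of replicates 1 and 2 on the log2 scale were -0.08 and -0.07 for Tuba1a, -0.13 and -0.05 for Tuba1b, and -0.08 and -0.04 for Tuba1c, so both were negative for each α member. The log2 fold changes of Tuba1a and Tuba1c were -0.07 (SE 0.077) and -0.06 (SE 0.053), with edgeR adjusted p of 0.795 and 0.734. With the block and the offsets, Tuba1b and Tuba1c passed (log2 fold changes -0.13 and -0.12, edgeR adjusted p = 0.0241 and 0.0357). With libraries left out, Tuba1b ranged from -0.155 to -0.0255 and Tuba1c from -0.105 to -0.012.

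The abundant β members overlapped with vehicle. Tubb5 had 1580 and 1510 CPM with vehicle and 1488 and 1536 CPM with MFI8, a log2 fold change of -0.03 (95% interval -0.14 to 0.08). Tubb6 had 579 and 519 CPM with vehicle and 582 and 541 CPM with MFI8, a log2 fold change of 0.03 (95% interval -0.11 to 0.17). Tubb4b had 345 and 339 CPM with vehicle and 342 and 347 CPM with MFI8, a log2 fold change of 0.01 (95% interval -0.10 to 0.12). The direction of Tubb6 and Tubb4b turned negative with the offsets for GC content and length. For Tubb5 the interval reaches from 0.908-fold to 1.05-fold.

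The scarce paralogs Tubb2a and Tubb2b were not called. Tubb2a had 51.4 and 52.9 CPM with vehicle and 52.3 and 56.2 CPM with MFI8. Tubb2b, an isotype of the developing brain, had 24.3 and 28.7 CPM with vehicle and 26.3 and 33.2 CPM with MFI8. In both, replicate 2 was above replicate 1 in each of these groups, and the groups overlapped. Between libraries of the same number the differences were 0.02 and 0.09 for Tubb2a and 0.12 and 0.21 for Tubb2b. Their log2 fold changes were 0.06 (SE 0.067) and 0.17 (SE 0.118), with edgeR adjusted p of 0.816 and 0.65.

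**Figure D3:**
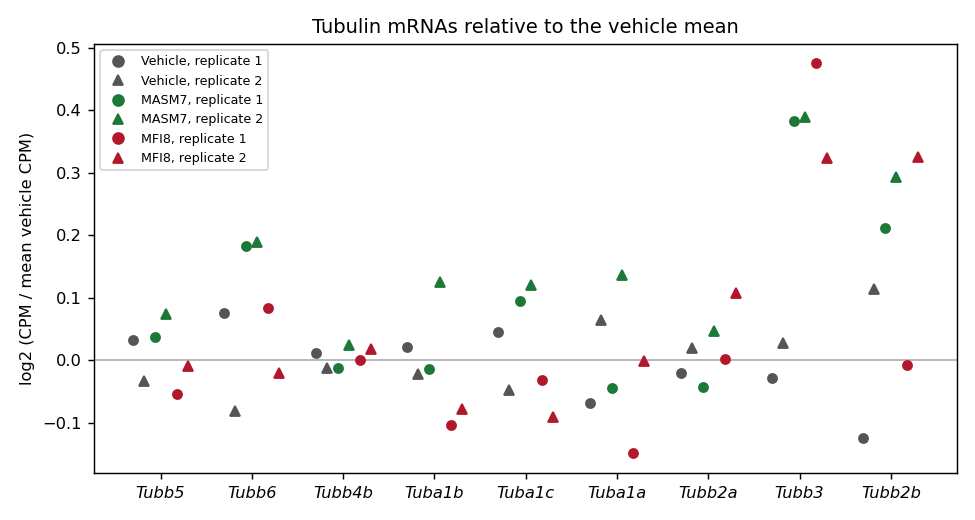
CPM of each member in each library relative to the mean of the 2 vehicle libraries (y axis, log2 scale), with grey for vehicle, green for MASM7 and red for MFI8, and circles for replicate 1 and triangles for replicate 2. Tubb3 is the member in which all 4 treated libraries lie farthest above the vehicle libraries, while Tubb5 and Tubb4b stay within about 0.1 of the vehicle mean.

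For MASM7, all 9 members were above vehicle on average, by a median log2 fold change of 0.06 against 0.00067 over all genes tested, but the number falls to 7 with library size alone or on TPM and to 5 with offsets for GC content and length. The median was 0.0089 with those offsets and 0.0316 to 0.13 with a library left out. By adjusted p, 0 of 9 members and 0% of all genes tested were called. At an unadjusted p under 0.05 the test passed 2 of 9 members, Tubb3 and Tubb6, and 10.2% of all genes. With the replicate block 3 of 9 were called, all of them β members and all higher, against 3.88% of all genes, of which 2.48% were higher and 1.39% lower. Both MASM7 libraries were above both vehicle libraries in 5 of 9 members and 21.2% of all genes, and below both in 0 of 9 members and 21.6% of all genes.

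Tubb3 had 33.3 and 33.5 CPM with MASM7 against 25.0 and 26.0 with vehicle. The gap between the groups was wider than the gap within either. The log2 fold change was 0.39 (SE 0.079, 95% interval 0.21 to 0.56), a 1.31-fold higher level. Its edgeR adjusted p was 0.466 without the block and 0.00391 with it. The call with the block was lost with the offsets for GC content and length (log2 fold change 0.27, edgeR adjusted p = 0.063) and without MASM7 replicate 2 (0.35, edgeR adjusted p = 0.133). Tubb3 had the highest GC content of the members, at 57.9% of its transcript.

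Tubb6 had 624 and 626 CPM with MASM7 against 579 and 519 with vehicle. The vehicle libraries lay further apart than the MASM7 libraries, and all MASM7 values were above them. The log2 fold change was 0.19 (SE 0.062, 95% interval 0.05 to 0.33), a 1.14-fold higher level, with an edgeR adjusted p of 0.473 without the block and 0.0198 with it. Under the block it was lost with the offsets for GC content and length (0.08, edgeR adjusted p = 0.202), without Vehicle replicate 2 (0.13, edgeR adjusted p = 0.406) and without MASM7 replicate 2 (0.12, edgeR adjusted p = 0.411).

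Tubb2b had 30.7 and 32.4 CPM with MASM7 against 24.3 and 28.7 with vehicle. The groups did not overlap, and the spread within vehicle was wide. Its log2 fold change was 0.25 (SE 0.117, 95% interval -0.01 to 0.51), with an edgeR adjusted p of 0.501 without the block and 0.0458 with it. The call was marginal. With the block it was lost with library size alone (edgeR adjusted p = 0.0553), with DESeq2's size factors (0.059), with the offsets for GC content and length (0.138), and without either vehicle library (0.0979 and 0.278) or either MASM7 library (0.323 and 0.119).

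The other members were not called. Tuba1c had 323 and 329 CPM with MASM7, above its vehicle values of 312 and 293 CPM, and a log2 fold change of 0.11 (SE 0.053, edgeR adjusted p = 0.51). Tubb5 had 1585 and 1627 CPM against 1580 and 1510 CPM, also without overlap, and a log2 fold change of 0.06 (SE 0.048, edgeR adjusted p = 0.687). Neither passed the test with the block and all libraries, and Tuba1c ranged from 0.059 to 0.16 with libraries left out. Tuba1a, with 209 and 236 CPM, Tuba1b, with 273 and 301 CPM, Tubb2a, with 50.6 and 53.9 CPM, and Tubb4b, with 340 and 348 CPM, overlapped their vehicle values. The log2 fold changes of these 4 were 0.05, 0.06, 0.0026 and 0.0064, and each turned negative with the offsets for GC content and length.

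**Figure D4:**
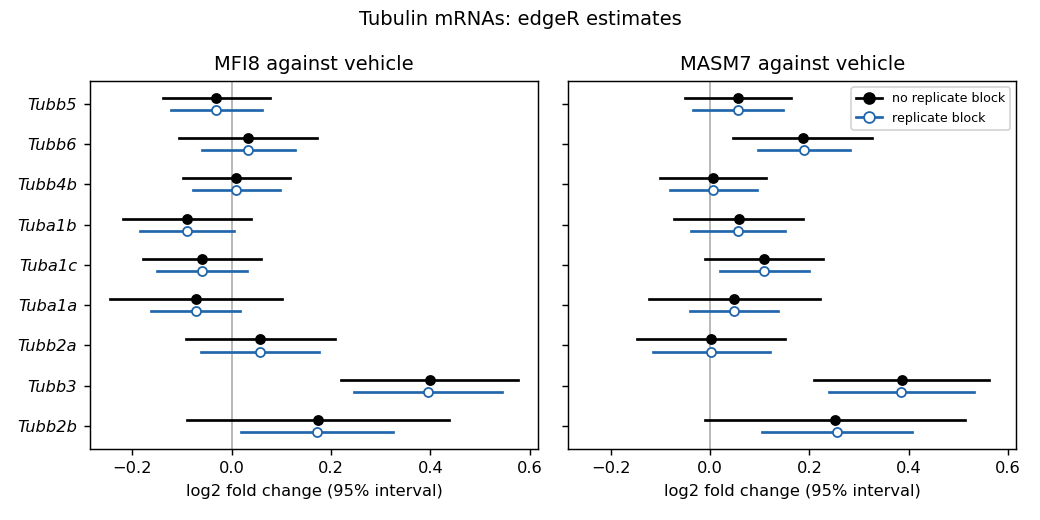
Log2 fold change (x axis) of each member by edgeR with its 95% interval, for MFI8 (left) and MASM7 (right) against vehicle, without the replicate block (filled black) and with it (open blue). The interval without the block lies above 0 for Tubb3 in both panels and for Tubb6 in the MASM7 panel.

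The intervals give the changes that each fit allows under its own scaling. Without the block, the lower bounds for the α members were 0.844-fold for Tuba1a, 0.859-fold for Tuba1b and 0.883-fold for Tuba1c with MFI8. The upper bounds with MASM7 were 1.165-fold for Tuba1a, 1.14-fold for Tuba1b and 1.17-fold for Tuba1c. In the same order, the upper bounds with MFI8 were 1.07, 1.03 and 1.04, and the lower bounds with MASM7 were 0.918, 0.951 and 0.993. The interval of Tubb5 was 0.908-fold to 1.05-fold with MFI8 and 0.965-fold to 1.12-fold with MASM7. These bounds cover each gene alone, with p-values not adjusted. They leave out the shared windows of the α members and the choice of scaling. With the offsets for GC content and length, the log2 fold change of Tuba1b with MFI8 was -0.13.

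The factors of the pathway were described from lists. Over the 14290 genes tested, 7239 were higher and 7051 lower with MFI8, and 7163 higher and 7127 lower with MASM7. With the block 5.04% and 3.88% of all genes were called. The directions of the genes in a list were counted and not tested. Ttc5, which reads the nascent tubulin chain, had 12.8 and 14.0 CPM with vehicle, 12.6 and 12.7 CPM with MASM7, and 10.8 and 14.0 CPM with MFI8. Scaper, its adaptor to the deadenylase, had 12.4 and 14.3 CPM with vehicle, 12.1 and 11.2 CPM with MASM7, and 12.7 and 14.9 CPM with MFI8. Both MASM7 libraries lay below vehicle in each, as they did for 21.6% of all genes, and the MFI8 libraries overlapped with it. The log2 fold changes with MASM7 were -0.09 (SE 0.129) for Ttc5 and -0.20 (SE 0.121) for Scaper, with edgeR adjusted p of 0.828 and 0.577, and they were -0.06 and -0.12 with the offsets. With MFI8 they were -0.11 (SE 0.131) and 0.05 (SE 0.121), with edgeR adjusted p of 0.825 and 0.915. With libraries left out, the value of Scaper with MASM7 ranged from -0.358 to -0.032.

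All 11 genes of the CCR4-NOT complex were tested. With MFI8, 10 of 11 were lower on average, 0 were called without the block and 1 was called lower with it, against 2.25% of all genes. That gene was Cnot6, a catalytic deadenylase subunit, with 319 and 327 CPM with vehicle and 287 and 285 CPM with MFI8 (log2 fold change -0.17, SE 0.051, edgeR adjusted p = 0.361, or 0.0183 with the block). It was called in 9 of 12 settings with the block and lost without Vehicle replicate 2, MFI8 replicate 1 or MFI8 replicate 2 (edgeR adjusted p up to 0.344). With MASM7, 8 of 11 were lower, 0 were called without the block, and 1 was called in each direction with it, against 2.48% of all genes higher and 1.39% lower. Cnot3, a regulatory subunit, had 99.2 ± 1.19 CPM with MASM7 against 86.2 ± 1.67 with vehicle (SD, n = 2). Its log2 fold change was 0.20 (SE 0.054, edgeR adjusted p = 0.466, or 0.023 with the block). It was called in 9 of 12 settings with the block and lost by DESeq2 and without Vehicle replicate 2 or MASM7 replicate 2 (adjusted p up to 0.342). Cnot6 was the gene called lower (log2 fold change -0.18, edgeR adjusted p = 0.466, or 0.0195 with the block).

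The folding route of new tubulin runs through prefoldin, the CCT chaperonin and the tubulin cofactors. With MFI8, 8 of 8 CCT genes were lower on average, with a median log2 fold change of -0.06 and 0 called with or without the block. Tcp1, a CCT subunit, had 972 and 1000.5 CPM with vehicle and 910 and 924 CPM with MFI8 (log2 fold change -0.10, SE 0.046, edgeR adjusted p = 0.495). Of 6 prefoldin genes, 5 were lower with MFI8, and Vbp1 was called lower with the block, against 2.25% of all genes (log2 fold change -0.17, SE 0.057, edgeR adjusted p = 0.412, or 0.0352 with the block). Vbp1 was called in 7 of 12 settings with the block, and with the offsets for GC content and length its value was -0.03 (edgeR adjusted p = 0.693 with the block). Of 7 cofactor genes, 6 were higher with MFI8 and 0 were called. Tbca, the cofactor that holds β-tubulin, was the exception, with 99.2 and 102 CPM with vehicle and 87.3 and 93.7 CPM with MFI8 (log2 fold change -0.15, SE 0.057, edgeR adjusted p = 0.435). With the offsets the values were -0.012 for Tbca and -0.05 for Tcp1.

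With MASM7 these 3 lists were nearer to balance. The CCT genes were 3 higher and 5 lower, the prefoldin genes 3 and 3, and the cofactor genes 4 and 3, with 0 called in each with or without the block. Tcp1 had 935 and 937 CPM (log2 fold change -0.08, SE 0.046, edgeR adjusted p = 0.579). Tbcb, a cofactor that binds α-tubulin, had 45.4 and 48.2 CPM against 44.0 and 39.7 with vehicle (log2 fold change 0.16, SE 0.077, edgeR adjusted p = 0.501). Vbp1 had 138 and 136 CPM against 147 and 157 with vehicle (log2 fold change -0.15, edgeR adjusted p = 0.476). With the offsets the values were 0.01 for Tcp1, 0.07 for Tbcb and -0.02 for Vbp1. With the block and library size alone, Vbp1 passed (-0.16, edgeR adjusted p = 0.0475). With libraries left out, Vbp1 ranged from -0.21 to -0.0957 and Tbcb from 0.0556 to 0.27.

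**Figure D5:**
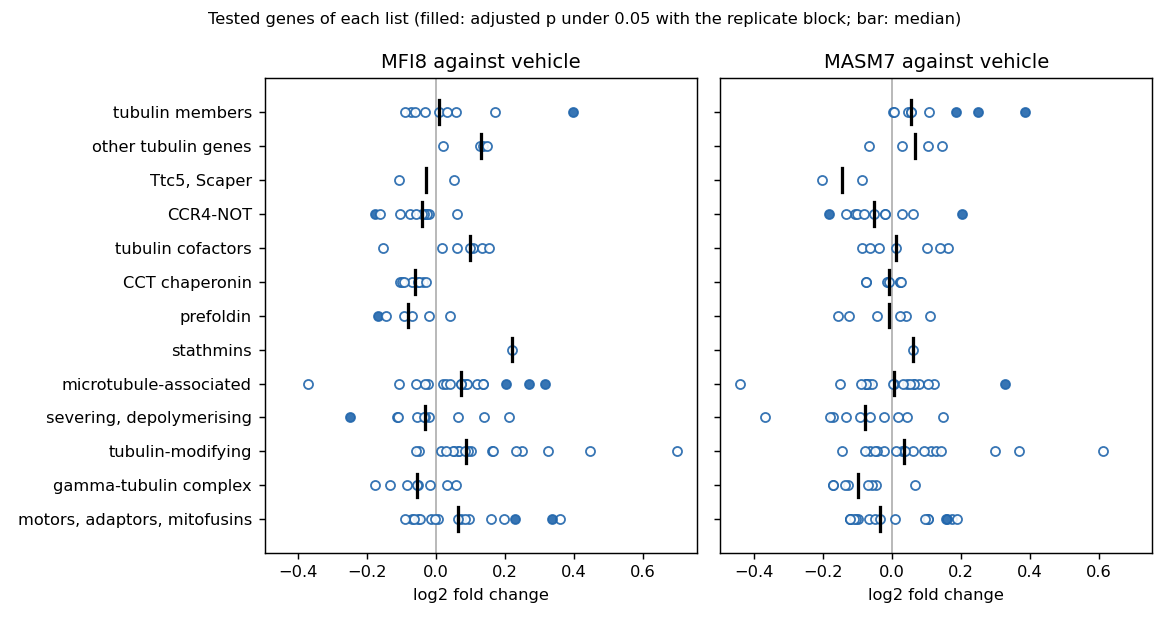
Log2 fold change (x axis) of the tested genes of each list for MFI8 (left) and MASM7 (right) against vehicle, without the replicate block. Filled points had an adjusted p under 0.05 with the block, and black bars are list medians. Filled points are few in each list, and among the tubulin members they are Tubb3 with MFI8 and Tubb3, Tubb6 and Tubb2b with MASM7.

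The genes named next, for proteins that bind or move along microtubules, had smaller log2 fold changes than Tubb3 (0.40 with MFI8 and 0.39 with MASM7). Dync1h1, the heavy chain of cytoplasmic dynein, which carries mitochondria toward the cell centre, had 431 and 420 CPM with vehicle, 470 and 480 CPM with MASM7, and 556 and 518 CPM with MFI8. The groups did not overlap. Its log2 fold change with MFI8 was 0.34 (SE 0.053, edgeR adjusted p = 0.0924, or 1.44e-05 with the block), and it was called in 12 of 12 settings with the block, with 0.18 as the value under the offsets for GC content and length. With MASM7 the log2 fold change was 0.16 (SE 0.053, edgeR adjusted p = 0.473, or 0.0395 with the block), called in 4 of 12 and 0.07 at the lowest. Of the 17 motor, adaptor and mitofusin genes, 10 were higher and 7 lower with MFI8, with 2 called higher with the block against 2.79% of all genes. With MASM7, 8 were higher and 9 lower, with 1 called higher with the block against 2.48%.

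Map1b, a protein that stabilizes microtubules, had 210 and 214 CPM with vehicle, 228 and 210 CPM with MASM7, and 261 and 267 CPM with MFI8, where both libraries were above all others. The log2 fold change with MFI8 was 0.32 (SE 0.056, edgeR adjusted p = 0.107, or 5.33e-05 with the block), called in 12 of 12 settings with the block and lowest at 0.24 with the offsets for GC content and length. Its relative Map1s, which also binds mitochondria-associated proteins, had 86.5 and 74.9 CPM with vehicle, 101 and 102 CPM with MASM7, and 93.8 and 92.1 CPM with MFI8. With MASM7 its log2 fold change was 0.33 (SE 0.070, edgeR adjusted p = 0.466, or 0.00134 with the block), and 0.18 with the block and the offsets. It was called in 10 of 12 settings with the block and lost without Vehicle replicate 2 or MASM7 replicate 2 (edgeR adjusted p up to 0.123). Of 19 microtubule-associated genes tested, 14 were higher with MFI8, 3 of them called with the block against 2.79% of all genes, and 11 were higher with MASM7, 1 of them called with the block against 2.48%. Beside Map1b, the genes called with MFI8 were Map1s and Arhgef2. Their log2 fold changes were 0.20 (edgeR adjusted p = 0.412, or 0.0277 with the block) and 0.27 (0.248, or 0.000361 with the block). These MFI8 values were not followed through the other settings.

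Enzymes that modify, sever or depolymerise microtubules were described last. Of 18 tubulin-modifying enzymes tested, 16 were higher with MFI8 and 12 with MASM7, and 0 were called with or without the block. Their smallest p-values were those of the tubulin glycylase Ttll3 with MFI8 (log2 fold change 0.33, SE 0.165, edgeR adjusted p = 0.548) and of the α-tubulin acetyltransferase Atat1 with MASM7 (0.30, SE 0.140, edgeR adjusted p = 0.501). With libraries left out, Ttll3 ranged from 0.161 to 0.491 and Atat1 from 0.145 to 0.466. Of 10 severing and depolymerising genes tested, 7 were lower with each compound. The smallest p-values were those of Katnal1 with MFI8 (0.21, SE 0.082, edgeR adjusted p = 0.445) and of the severing enzyme spastin, Spast, with MASM7 (-0.17, SE 0.064, edgeR adjusted p = 0.477), and Spast was at -0.10 with the offsets. With the block, 1 gene of this list, Kif18a, a kinesin of mitotic spindles, was called lower with MFI8, against 2.25% of all genes.

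Stmn1, which sequesters tubulin dimers, was the only stathmin tested, of 4. It had 28.3 and 23.5 CPM with vehicle, 28.1 and 25.9 CPM with MASM7, and 31.6 and 28.8 CPM with MFI8 (log2 fold change with MFI8 0.22, SE 0.102, edgeR adjusted p = 0.521, or 0.0698 with the block). It passed with the block and the offsets (0.25, edgeR adjusted p = 0.0304) and with the block when Vehicle replicate 1 was left out (0.30, edgeR adjusted p = 0.042). Of 8 genes of the γ-tubulin complex, 6 were lower with MFI8 and 7 with MASM7, with 0 called. Mzt1, a small subunit of that complex, had the smallest p with each compound (log2 fold changes -0.17 and -0.17, edgeR adjusted p = 0.413 and 0.473), and with the offsets its values were -0.08 and -0.05. With the block and only the groups compared, Mzt1 passed for MFI8 (-0.18, edgeR adjusted p = 0.0458). With libraries left out it ranged from -0.218 to -0.133 with MFI8 and from -0.214 to -0.121 with MASM7. Genes of mitosis, which use the same microtubules, were lower in 14 of 16 cases with MFI8 and 12 of 16 with MASM7, with 3 called lower for each with the block, against 2.25% and 1.39% of all genes. The part of cell division in the tubulin values was not tested.

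The genes whose pattern over the 6 libraries was most like the mean of the members were Trim27 (Pearson's r = 0.998), Ifrd2 (0.997), Rabepk (0.994), Mepce (0.994) and Psmb3 (0.992), among 8881 genes with a mean CPM of at least 10. With 6 points that share 3 groups and their depth, such values are a description.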

How the data were processed

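The sources name Trimmomatic, STAR, featureCounts and GRCm38; versions and the annotation release are not given in the sources used here. The authors deposited raw counts per gene, TPM values, and normalized counts that were not used. Alignment was not repeated. Counts were tested in edgeR 4.0.16 (R 4.3.3) with TMM, filterByExpr, 1 coefficient per group and the quasi-likelihood F test. TPM served for levels between genes, for sums and shares over isotypes and, with limma, as an alternative. Gene models, start codons, identities and window counts came from GENCODE vM21 on GRCm38, read with Biopython 1.88. Each standard error is the log2 fold change over the root of its F value. Doses and times were taken from the study's figure legends. The scripts were tested on simulated data.

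The members and lists were chosen with earlier results of these data known. Beside the members, Ttc5, Scaper and, for each pathway list, the tested gene with the smallest p in each comparison were named. Other genes were chosen after their values were seen, which are Cnot6 with MASM7, Tuba4a, Map1s, Arhgef2 and Kif18a with MFI8 and the fibroblast and muscle markers. Libraries are numbered 1 and 2 in each group. Over 14290 genes, the differences between replicate 2 and replicate 1 correlated between groups (Pearson's r 0.188 for Vehicle and MASM7, 0.152 for Vehicle and MFI8, 0.165 for MASM7 and MFI8), all above 0.1. The numbers were therefore taken as pairs, although the labels do not say what a number stands for. The alternatives were other size factors, filters, DESeq2 1.42.0, limma 3.58.1 on TPM, only the groups compared, GC and length offsets, the block, and leaving out each library. The combinations of the block with other scalings, with only the groups compared and with libraries left out were added after seeing the data.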

Additional observations from a re-analysis of the deposited data

How the results depend on the processing

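Without the replicate block, the numbers of genes called for MFI8 and MASM7 were 256 and 127 with no filter on low counts, and 49 and 3 by DESeq2, against 0 and 0 in the fit reported. With only the 2 groups compared, 1 gene was called for MASM7. With the block they were 720 and 554 in edgeR, 218 and 184 by DESeq2, 595 and 152 with the GC and length offsets, 700 and 533 when scaled by library size only, 596 and 452 under DESeq2's size factors, and 768 and 478 with only the groups compared. With no filter, 1 member was called for MFI8 (Tubb3) and 2 for MASM7 (Tubb3 and Tubb6). With the block 1 and 3 members were called. With the block and the offsets 3 were called for MFI8, with library size alone or DESeq2's size factors 1 and 2, with only the groups compared 1 and 3, and by DESeq2 1 for MASM7 (Tubb6). DESeq2 with the block gave no adjusted p for Tubb2a, Tubb2b and Tubb3, so these 3 are not counted there as lost. Leaving out single libraries, with and without the block, gave 0 to 1107 genes and 0 to 1 members for MFI8, and 0 to 1234 genes and 0 to 3 members for MASM7. The lowest counts with the block were 159 for MFI8, without MFI8 replicate 2, and 31 for MASM7, without MASM7 replicate 2. The cause was not tested.

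The median of the members with MASM7 was 0.0089 with the offsets, 0.00894 with the offsets and the block, and 0.0316 to 0.13 with libraries left out. The members that turned direction were not called in any of these settings. With MFI8 these were Tubb4b and Tubb6 with the offsets (-0.0225 and -0.0191, with the block -0.0224 and -0.019). With MASM7 they were Tubb2a and Tubb4b with library size alone (-0.00824 and -0.00433, with the block -0.00817 and -0.00439) and in limma on TPM (-0.0143 and -0.0102 with a pseudocount of 1, -0.0144 and -0.0102 with 0.1). With the offsets they were Tuba1a, Tuba1b, Tubb2a and Tubb4b (-0.0163, -0.0312, -0.085 and -0.0758, with the block -0.0157, -0.0316, -0.0848 and -0.0757), and Tcp1 (0.0132, with the block 0.0133). Leaving out libraries gave, for MFI8, -0.149 to 0.0016 for Tuba1a, -0.0847 to 0.0238 for Tubb5, -0.00832 to 0.327 for Tubb2b, -0.0169 to 0.0363 for Tubb4b, -0.0436 to 0.115 for Tubb6, -0.314 to 0.0591 for Ttc5 and -0.0726 to 0.162 for Scaper. For MASM7 it gave -0.0441 to 0.136 for Tuba1a, -0.0178 to 0.13 for Tuba1b, -0.0428 to 0.0473 for Tubb2a, -0.0198 to 0.0312 for Tubb4b, -0.205 to 0.0454 for Ttc5 and -0.0673 to 0.199 for Stmn1. Of 480 member values under alternatives, 399 kept direction and side of the threshold, 43 turned direction and 38 came to pass the threshold. Tubb3 stayed higher in all of its alternatives (0.312 to 0.489 for MFI8, 0.265 to 0.45 for MASM7). With 2 libraries a group, a lone library left in a group is assumed to vary like the others.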
